A study of Mus musculus with 126 samples.

Results

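Sox4, Sox11, Sox12, Sox2, Sox9 and Sox17, 6 genes of the Sry-related HMG box (Sox) family of transcription factors, were followed across 126 prostate tumors of the TRAMP mouse. They were found by the gene symbol that the array platform gives each probe set, and 7 of the 41345 probe sets carried one of the 6 symbols alone. Sox4 had 2 probe sets and each of the others had 1. The probe set with the highest mean stood for its gene, and the values are log2 RMA values, so that a difference of 1 is a doubling of signal. In all, 20 Sox family genes and 22180 genes had a probe set with a single symbol. Each tumor came from a different male of an F2 intercross between TRAMP, on the C57BL/6 background, and NOD/ShiLtJ, so every mouse carried the transgene and a different mixture of the parental genomes. The TRAMP transgene drives the SV40 T antigens from the probasin promoter in prostate epithelium, and no tumor without it was measured. Mice were killed at an age of 30 weeks or earlier at a humane endpoint. The labels gave 87 tumors from mice with metastasis and 39 from mice without, and a tumor burden from 0.1 to 14.0 g (median 4.54 g). Each tumor was measured on 1 array, so the number of tumors, and not a repeated array, sets the precision of each slope, mean and correlation. The measurement error of a single tumor's value is not known.

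Sox proteins bind DNA through the HMG box and usually act beside a partner factor. The SoxC group (Sox4, Sox11 and Sox12) is known from neuronal and mesenchymal progenitors, where it acts on genes of early neuronal differentiation. Sox2 is a SoxB1 factor that keeps stem and neural progenitor cells undifferentiated. Sox9, of the SoxE group, is needed for the budding of prostate epithelium and for cartilage. Sox17, of the SoxF group, acts in endoderm and in arterial endothelium. Dsp encodes desmoplakin, the plaque protein of desmosomes and a marker of epithelium here. Chga encodes chromogranin A, a secretory granule protein and a marker of neuroendocrine cells.

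Promoter sequence in RefSeq (GRCm38.p6) was matched for 4 of the 6 genes, and not for Sox9 or Sox17. The 250 bases before the annotated start of each of the 4 are printed 5′ to 3′ on the gene's strand. They lie at chr13:28953700-28953949 (minus strand, Sox4), chr12:27342719-27342968 (minus strand, Sox11), chr2:152398047-152398296 (minus strand, Sox12) and chr3:34649745-34649994 (plus strand, Sox2). Capitals mark the CCAAT box (CCAAT or its reverse complement) and the octamer ATGCAAAT.
Sox4: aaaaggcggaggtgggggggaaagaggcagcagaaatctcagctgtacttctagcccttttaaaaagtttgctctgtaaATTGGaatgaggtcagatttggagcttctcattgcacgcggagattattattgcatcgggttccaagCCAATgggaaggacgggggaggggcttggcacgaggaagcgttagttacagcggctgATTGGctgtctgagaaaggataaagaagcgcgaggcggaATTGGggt
Sox11: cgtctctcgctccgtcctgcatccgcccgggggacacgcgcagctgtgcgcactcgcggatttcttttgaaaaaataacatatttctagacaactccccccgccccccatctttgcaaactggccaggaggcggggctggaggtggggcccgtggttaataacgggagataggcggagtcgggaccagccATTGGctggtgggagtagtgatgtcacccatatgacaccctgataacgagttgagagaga
Sox12: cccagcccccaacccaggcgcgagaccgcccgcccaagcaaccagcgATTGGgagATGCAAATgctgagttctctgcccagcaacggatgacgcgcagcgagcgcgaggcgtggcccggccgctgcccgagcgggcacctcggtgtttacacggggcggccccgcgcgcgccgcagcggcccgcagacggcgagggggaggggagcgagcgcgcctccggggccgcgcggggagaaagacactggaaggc
Sox2: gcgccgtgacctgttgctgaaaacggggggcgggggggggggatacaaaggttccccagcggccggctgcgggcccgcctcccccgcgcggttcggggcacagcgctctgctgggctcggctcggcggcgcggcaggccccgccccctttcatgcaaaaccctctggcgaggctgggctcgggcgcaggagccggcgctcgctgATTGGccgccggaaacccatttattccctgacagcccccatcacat
The Sox4 stretch held 4 CCAAT boxes, which began 171, 104, 47 and 8 bases before the start. Sox11, Sox12 and Sox2 held 1 each, 60, 203 and 46 bases before it. A CCAAT box was present in 33.8% of all 32851 promoters of that length. The octamer, the site of POU factors, was found in Sox12 alone of the 4, beginning 195 bases before the start and overlapping an E-box (CANNTG), and in 1.60% of all promoters. AACAAT on either strand, a form of the core letters bound by Sox factors, was in none of the 4 windows and in 9.42% of all promoters. Other forms of that core were not searched. TATAAA on either strand was also in none of them, against 12.4% of all, and an E-box was in 3 of them, against 66.2% of all. The GC content was 50.8% for Sox4, 58% for Sox11, 74.4% for Sox12 and 72% for Sox2, where the median promoter had 52.4%. These matches describe letters and not bound sites.

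The labelled tissue was checked against prostate genes. Foxa1 and Hoxb13, transcription factors of prostate epithelium, had median log2 levels of 10.91 and 9.20 over the tumors. Pbsn, the secreted protein whose promoter drives the transgene, had a median of 3.67, near the level below which probe sets were left out (3.42), and a highest value of 11.51. Tmprss2 and Krt19, the other measured genes of the prostate luminal list, had medians of 5.69 and 5.60, below every array median. Their highest values were 11.82 and 10.78. Most measured genes of that list were thus low in the typical tumor. Array medians lay between 5.84 and 6.05. One array, of mouse N1202 (0.4 g, no metastasis), had a mean correlation with the others of 0.880, where the next lowest had 0.915 and the median array 0.970.

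Sox11 split the tumors into separate clusters. In 9 tumors it lay between 5.39 and 7.61, and in the other 117 between 9.13 and 10.63, with no tumor in the gap. How many other genes split the tumors in the same way was not counted. The 9 tumors were the 9 lowest of all 126 for Chga too, at 6.45 to 9.58, although Chga had no gap there and the others began at 9.62 and reached 11.70. They all ranked among the 11 highest for Dsp, at 10.29 to 11.05, and among the 13 highest for Sox9, at 9.25 to 10.93. Their burdens ran from 0.1 to 4.9 g, 5 of them were under 1 g, and 5 came from mice with metastasis and 4 from mice without. The lowest Sox11 value, 5.39, was in a tumor of 0.4 g (N293, no metastasis), and the heaviest of the 9, a tumor of 4.9 g (N1423, metastasis), had 5.86. High Dsp did not always come with low Sox11. Of the other tumors, 2 had a Dsp as high as these 9, with Sox11 at 10.33 (N183, 0.8 g) and 9.47 (N1234, 4.7 g). In N1234 Sox9 was 6.49 and Sox2 was 11.23, the fourth lowest and the second highest of all tumors.

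Marker lists of several cell types moved with these 9 tumors. Their mean over 15 epithelial junction genes was 8.78 to 9.81 (others 6.0 to 9.32), over 6 smooth muscle genes 8.22 to 11.09 (others 6.17 to 10.73) and over 11 neuroendocrine genes 5.93 to 7.96 (others 8.39 to 9.74). The mean of 3 proliferation genes was 9.25 to 10.89 in them and 10.86 to 11.85 in the others. Over 5 prostate luminal genes the mean was 8.83 to 10.53 in the 9 (others 6.05 to 9.28). Over 6 fibroblast genes it was 8.82 to 10.56 (others 6.49 to 10.39) and over 12 endothelial genes 7.06 to 8.12 (others 5.75 to 7.69). Over 3 basal genes it was 5.315 to 7.61 (others 4.64 to 7.32). The macrophage and Schwann cell ranges overlapped too. Of the 10 lists only the neuroendocrine ranges did not overlap. The share of single genes without overlap was not counted. Because the 9 were set apart by Sox11 itself, these values are a description without a test, and in a tumor piece fewer cells of a type cannot be told apart from less RNA per cell. The slopes of the 6 genes on burden, and the correlations that do not involve Sox11, are therefore given with them and without them, and those of Sox11 within the other 117 tumors.

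The first question was whether the members changed with tumor burden. Of the 6 genes, Sox4 and Sox11 rose with burden and Sox9 fell, by limma with Benjamini-Hochberg adjustment over all 23507 probe sets tested, and Sox12, Sox2 and Sox17 did not pass. Against this background, 20.3% of all probe sets rose and 16.4% fell. With 2 of 6 rising and 1 of 6 falling, the counts of so small a set are not set apart from these shares. The median slope of the 6 was 0.0061 log2 per g and that of all probe sets 0.0036.

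Sox9 had the steepest slope of the 6. In the 15 tumors under 1 g it ran from 6.54 through a median of 9.26 to 10.93, and in the 26 tumors of 1 to under 3 g from 6.72 through 7.72 to 10.27. It was 6.47, 7.41 and 9.48 (lowest, median, highest) in the 32 tumors of 3 to under 5 g. In the 29 tumors of 7 g or more it ran from 6.32 through 7.06 to 9.21. The light tumors were thus spread widely and reached high, whereas most heavy tumors were low, and the ranges overlapped. The slope was -0.140 log2 per g (SE 0.0264, adjusted p = 1.64e-05). It was -0.0743 (adjusted p = 0.0159) without the 9 tumors low in Sox11 and -0.0786 (adjusted p = 0.0335) in the 111 tumors of 1 g or more, so Sox9 was the one member whose main probe set passed in each of these. Within the 4 ranges of mouse tag number, with the 9 tumors kept, the slope was -0.0742, -0.250, -0.123 and -0.174 per g. Without the 9, r with burden in these ranges was 0.0863, -0.717, -0.307 and -0.444, so the sign turned in the range under 500.

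Sox11 rose by 0.0974 log2 per g (SE 0.0277, adjusted p = 0.00329), and this slope rested on the 9 tumors. Under 1 g its lowest, median and highest values were 5.39, 9.44 and 10.55. From 1 to under 3 g they were 6.29, 10.01 and 10.50, from 3 to under 5 g 5.86, 10 and 10.63, and in tumors of 7 g or more 9.46, 10 and 10.53. The medians of these heavier classes stayed close together. Of the 9 low values, 5 were under 1 g, 3 between 1 and 3 g, and 1 in the tumor of 4.9 g. Without the 9 tumors the slope was 0.0021 per g (SE 0.0086, adjusted p = 0.914), with a 95% interval from -0.015 to 0.0192. The 9 were picked as the lowest in Sox11 itself. That fit therefore describes the other tumors and cannot test what the slope rested on.

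Sox4 rose by 0.0480 log2 per g (SE 0.0178, adjusted p = 0.0254). Its lowest, median and highest values were 7.42, 8.57 and 9.67 under 1 g and 7.94, 9.09 and 9.67 in tumors of 7 g or more, so the groups overlapped over most of their range. The lowest value of all, 7.03, was in the 4.9 g tumor of the 9 (N1423). The slope was 0.0249 (adjusted p = 0.376) without the 9 tumors. In tumors of 1 g or more it was 0.0260 (adjusted p = 0.418).

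Sox12, the third SoxC gene, had a slope of 0.0233 per g (SE 0.0111, adjusted p = 0.0882), with medians of 7.05 under 1 g and 7.39 at 7 g or more. Its lowest value, 5.67, was on the array of N1202. On the log2 of burden it passed (0.0774 per doubling, adjusted p = 0.0021), and without the 9 tumors the slope was 0.00135 (adjusted p = 0.949). The 3 SoxC genes thus had slopes of one sign, and none of their main probe sets passed once the 9 tumors were left out.

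Sox2 had the widest spread of the 6 probe sets, and its slope on burden did not pass. It ran from 4.94 to 11.44, with a median of 8.62 and an SD of 1.46 log2. Under 1 g its lowest, median and highest values were 6.30, 8.22 and 10.60, and at 7 g or more 4.94, 8.37 and 11.08. The slope was -0.0220 per g, with a 95% interval from -0.107 to 0.0634 (adjusted p = 0.727), an interval that still allows a change either way. The slope was -0.0463 (adjusted p = 0.575) without the 9 tumors.

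Sox17 stayed within a narrow range, from 5.94 to 6.84 with an SD of 0.158. Its median was 6.27 under 1 g and 6.25 at 7 g or more. The slope was -0.0111 per g (SE 0.00468, adjusted p = 0.0520), just outside the threshold, and it was -0.00362 (adjusted p = 0.658) without the 9 tumors.

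**Figure D1:**
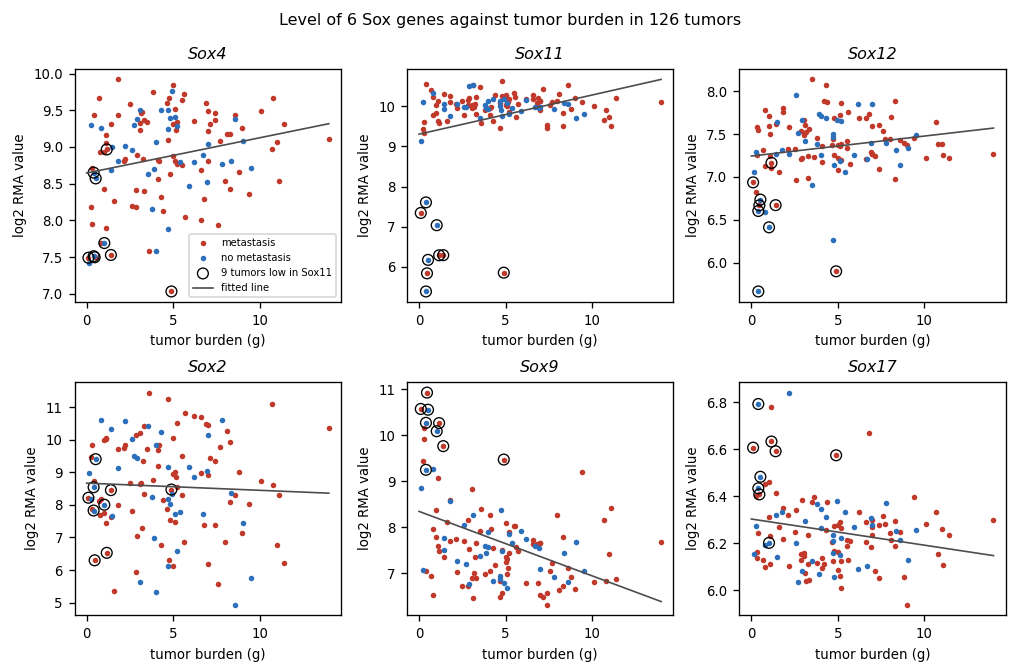
Log2 RMA value of each of the 6 Sox genes (vertical axis) against tumor burden in g (horizontal axis) for 126 tumors, coloured by metastasis label, with the fitted line and with circles around the 9 tumors low in Sox11. Sox11 sits between 9.13 and 10.63 in all tumors but those 9, and Sox9 is high mainly in light tumors.

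Genes of other cell types moved with burden as well. All 15 epithelial junction genes fell, among them Dsp (-0.286 per g), Cdh1 (E-cadherin, -0.313), Krt18 (-0.275) and Cldn4 (-0.266), and so did all 6 smooth muscle genes and 5 of 6 fibroblast genes. Of 11 neuroendocrine genes 8 rose, and all 3 proliferation genes rose. Without the 9 tumors, 12 of the 15 epithelial genes, all 6 smooth muscle genes and 3 of 6 fibroblast genes still fell. In the same fit 1 of 11 neuroendocrine and 2 of 3 proliferation genes rose. Of all 23507 probe sets 1183 rose and 1511 fell in that fit, against 4777 and 3860 over all tumors. The mean over the epithelial list ran from 6.22 to 9.79 in tumors under 1 g and from 6.0 to 9.81 in the rest, and its means were 8.39 and 6.67. With that mean in the fit, 0.208% of all probe sets passed in either direction and none of the 6 genes did (smallest adjusted p = 0.379, Sox11). Sox9 then had a slope of -0.0160 (adjusted p = 0.842), Sox4 of 0.00343, and Sox11 and Sox12 turned to -0.0445 and -0.0198. The part of smooth muscle, fibroblast and endothelial signal was not tested. Among tumors of 1 g or more, where 3.7% of all probe sets rose and 4.54% fell, Sox9 was the one member called.

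The 2 probe sets of Sox4 did not behave alike. The main one (17291525) had a mean of 8.87 and the other (17286231) one of 5.47. Sox4 lies on the minus strand of chromosome 13. The 20 probe sets numbered nearest to the main one all belonged to minus-strand genes of that chromosome, and the 20 numbered nearest to the other all belonged to plus-strand genes. Which transcript the second one reads was not settled. Their levels correlated across the 126 tumors (r = 0.560, rho = 0.577, permutation p = 1e-05 for both, the smallest that 100000 resamples give, adjusted p = 1.33e-05; r = 0.541 without the 2 farthest tumors).

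The other probe set rose by 0.114 log2 per g (SE 0.0211, adjusted p = 1.18e-05). It passed also without the 9 tumors (0.0999, adjusted p = 0.00141) and at 1 g or more (0.0953, adjusted p = 0.0113), and with the epithelial mean it was 0.0807 (adjusted p = 0.109). Its lowest, median and highest values were 3.88, 4.75 and 6.31 under 1 g and 4.44, 5.90 and 8.13 at 7 g or more. Each tumor's difference between them, other minus main, rose with burden too (r = 0.293, permutation p = 0.00075; rho = 0.260, permutation p = 0.00302; 4 relations in this family, adjusted p = 0.00075 and 0.00302). That r was 0.209 without the 2 tumors of most extreme burden, and 0.508, 0.359, 0.202 and 0.0434 within the 4 ranges of mouse tag. The second probe set named Sox4 thus passed without the 9 tumors and the main one did not.

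**Figure D2:**
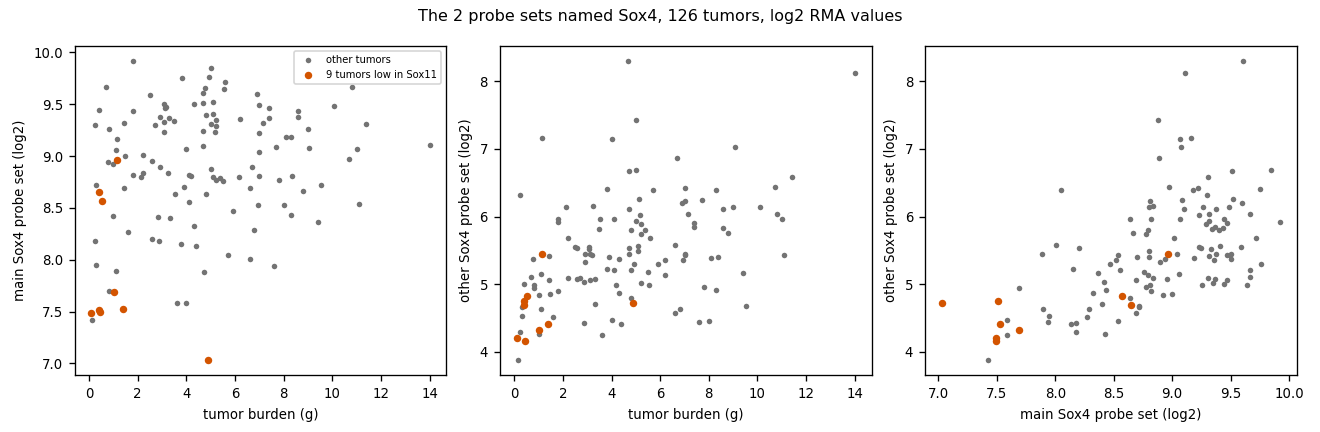
The main and the other probe set named Sox4 against tumor burden in g (left, middle) and against each other (right), log2 RMA values of 126 tumors, with the 9 tumors low in Sox11 in orange. The other probe set reaches 8.30, and the 9 tumors run from 7.03 to 8.97 on the main one and from 4.16 to 5.45 on the other.

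Over the whole family, 3 of 20 Sox genes rose with burden and 1 fell, against the 20.3% and 16.4% of all probe sets. The fourth gene beside Sox4, Sox11 and Sox9 was Sox18, a SoxF factor of blood and lymphatic endothelium, which rose by 0.0910 per g (SE 0.0342, adjusted p = 0.0277). It ran from 4.89 to 9.88 and had a slope of 0.0761 (adjusted p = 0.213) at 1 g or more and of 0.0474 (adjusted p = 0.414) without the 9 tumors. Without them 0 of the 20 rose and 1, Sox9, fell. Fewer probe sets passed in that fit, where 1183 of all 23507 rose and 1511 fell, against 4777 and 3860 over all tumors. The median slope of the 20 was -0.0020 per g, against 0.0036 for all probe sets. Sox17 and Sox18, of the same group, thus had slopes of opposite sign, of which that of Sox18 passed.

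**Figure D3:**
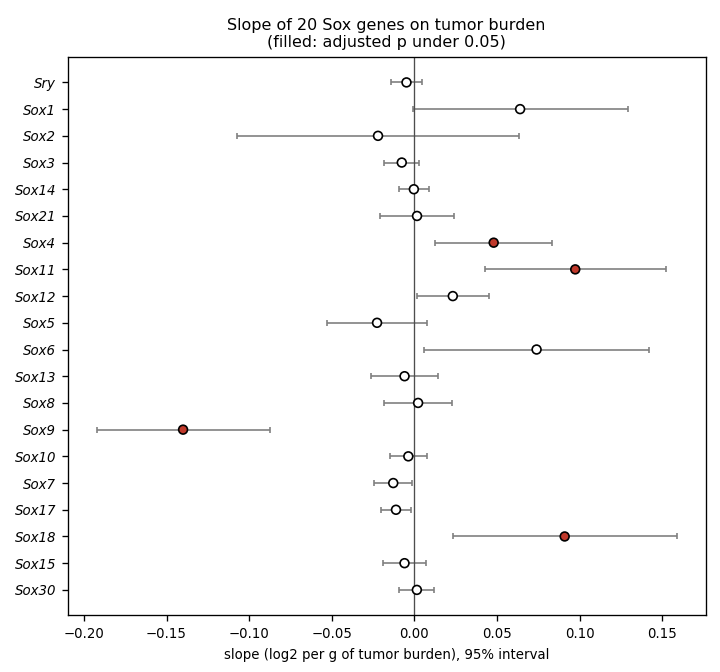
Slope of each of 20 Sox genes on tumor burden (log2 per g, horizontal axis) with its 95% interval, in the order of the family's groups. Filled points passed at an adjusted p under 0.05, which are Sox4, Sox11 and Sox18 above 0 and Sox9 below 0.

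The second question was whether the members differed between mice with and without metastasis. None of the 6 did. No probe set of the 23507 passed in either direction (0.0% called) by limma, the methods' t-test or a rank test, and 874 had an unadjusted p under 0.05 by limma. Sox11 had its lowest, median and highest values at 5.84, 10.04 and 10.63 with metastasis and at 5.39, 9.99 and 10.53 without. Sox9 had 6.32, 7.51 and 10.93 with metastasis and 6.69, 7.58 and 10.56 without. The 2 groups covered nearly the same range for each gene.

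Metastasis minus no metastasis was 0.05 for Sox4 (95% interval from -0.19 to 0.28), 0.16 for Sox11 (-0.21 to 0.53) and 0.13 for Sox12 (-0.015 to 0.27). It was 0.20 for Sox2 (-0.35 to 0.75), -0.13 for Sox9 (-0.51 to 0.24) and -0.02 for Sox17 (-0.08 to 0.04). Their adjusted p-values were all 0.985 or above, and the smallest unadjusted one was that of Sox12 (0.0785). The intervals still allow changes of up to about the stated bounds, widest for Sox2. For Sox12 the difference was above 0 in each of the 4 tag ranges, from 0.0423 to 0.364, and for Sox9 it was below 0 in each, from -0.361 to -0.0305. The difference of Sox12 was 0.0681 without the 9 tumors and 0.0365 at 1 g or more, and that of Sox9 was -0.0297 and -0.0093. With burden in the fit of all tumors that of Sox12 was 0.11 (unadjusted p = 0.116). Of the whole family the smallest unadjusted p was that of Sox3 (0.0281, adjusted 0.985), chosen here after its value was seen.

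**Figure D4:**
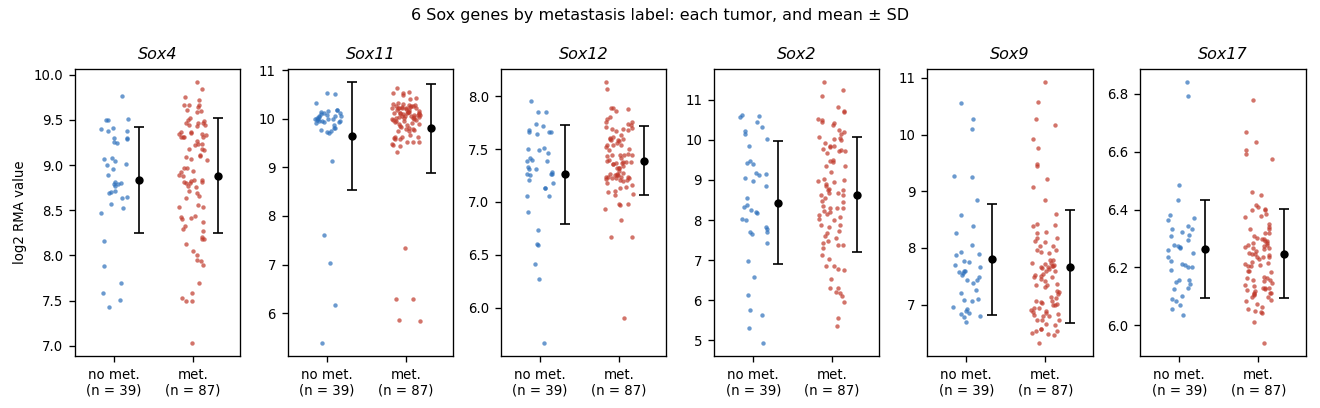
Log2 RMA value of each of the 6 Sox genes in every tumor by metastasis label (39 without, 87 with), with the mean and SD of each group in black. The groups overlap for every gene, and the low tail of Sox11 holds 4 tumors without and 5 with metastasis.

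The slope on burden was also compared between the 2 labels by an interaction term, for which 0.0% of the probe sets passed (3180 had an unadjusted p under 0.05). Among the members the unadjusted p was smallest for Sox12 (slope with metastasis minus slope without -0.0591 per g, p = 0.0225, adjusted p = 0.305). Sox2 had 0.190 (adjusted p = 0.391) and Sox11 -0.113 (adjusted p = 0.426). These were -0.0188 for Sox12, 0.209 for Sox2 and 0.0072 for Sox11 without the 9 tumors, and none passed.

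The third question was how the members followed Dsp and Chga. The 12 relations were tested by permutation over all 126 tumors, except that those of Sox11, which falls into clusters, were computed within the 117 tumors above its gap. Sox9 rose with Dsp (r = 0.713, rho = 0.485) and fell with Chga (r = -0.694, rho = -0.492). The permutation p was 1e-05 for each (adjusted p = 2e-05 for both r and 6e-05 for both rho). Leaving out the 2 tumors farthest from the median gave r of 0.687 and -0.630. Within the 4 tag ranges r with Dsp was 0.680, 0.778, 0.566 and 0.729, and with Chga -0.872, -0.859, -0.494 and -0.560. Sox9 thus held one sign with each gene in every range.

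Sox9 still passed with both genes without the 9 tumors, and r was lower. It was 0.473 with Dsp (permutation p = 1e-05, adjusted p = 0.00012; rho = 0.361, p = 5e-05, adjusted p = 0.0003) and -0.349 with Chga (permutation p = 0.00012, adjusted p = 0.00048; rho = -0.369, p = 4e-05, adjusted p = 0.0003). In the tumors among these of 1 g or more, r was 0.234 and -0.316. The tag ranges gave 0.406, 0.482, 0.312 and 0.569 with Dsp and -0.733, -0.671, -0.224 and -0.202 with Chga.

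Sox11 rose with Chga within the 117 tumors (r = 0.353, permutation p = 6e-05, adjusted p = 8e-05; rho = 0.349, p = 0.00013, adjusted p = 0.00052; r = 0.317 without the 2 farthest tumors), with r from 0.257 to 0.509 in the tag ranges. Its relation to Dsp passed by r (-0.226, permutation p = 0.0144, adjusted p = 0.0172; -0.233 without the 2 farthest tumors) and not by rho (-0.128, p = 0.171, adjusted p = 0.228), and within the tag ranges r ran from -0.615 to 0.0449. At 1 g or more these r were 0.329 and -0.144.

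Sox4 rose with Chga (r = 0.485, permutation p = 1e-05, adjusted p = 2e-05; rho = 0.330, p = 0.00025, adjusted p = 0.00075) and fell with Dsp (r = -0.407, permutation p = 1e-05, adjusted p = 2e-05; rho = -0.254, p = 0.00428, adjusted p = 0.00856). Leaving out the 2 farthest tumors gave 0.482 and -0.379, and the tag ranges gave r from 0.489 to 0.541 and from -0.556 to -0.180. With the 9 tumors left out r with Chga was 0.252 (permutation p = 0.00601, adjusted p = 0.0180), its rho of 0.211 did not pass (p = 0.0224, adjusted p = 0.0671), and r with Dsp was -0.167 (adjusted p = 0.0855).

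Sox12 fell with Dsp over the 126 tumors (r = -0.524, permutation p = 1e-05, adjusted p = 2e-05; rho = -0.233, p = 0.00839, adjusted p = 0.0139; r = -0.459 without the 2 farthest tumors). With Chga it passed by r (0.438, permutation p = 1e-05, adjusted p = 2e-05; 0.378 without the 2 farthest) and not by rho (0.035, p = 0.698, adjusted p = 0.757), and in the tag range from 800 to under 1000 this r was -0.136. Once the 9 tumors were left out r was -0.188 with Dsp and -0.203 with Chga (adjusted p = 0.0705 and 0.0562), so the second changed its sign.

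Sox17 rose with Dsp (r = 0.385, permutation p = 3e-05, adjusted p = 4.5e-05; rho = 0.232, p = 0.00926, adjusted p = 0.0139) and fell with Chga (r = -0.420, permutation p = 3e-05, adjusted p = 4.5e-05; rho = -0.262, p = 0.00335, adjusted p = 0.00804). Leaving out the 2 farthest tumors gave 0.314 and -0.419, and the tag ranges gave r from 0.267 to 0.493 and from -0.495 to -0.371. In the 117 tumors r was 0.0833 and -0.185 (adjusted p = 0.401 and 0.0705). Sox2 passed with neither gene (r = 0.0455 with Dsp and 0.0828 with Chga, permutation adjusted p = 0.612 and 0.392). The relations of Sox9 to both genes and of Sox4 to Chga were the ones of these 10 that passed by r without the 9 tumors. Within the 9, none of 12 relations passed an exact permutation test after adjustment, and the smallest p was that of Sox11 with Chga (r = 0.758, exact p = 0.0217; rho = 0.800, exact p = 0.0138; adjusted p = 0.239).

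**Figure D5:**
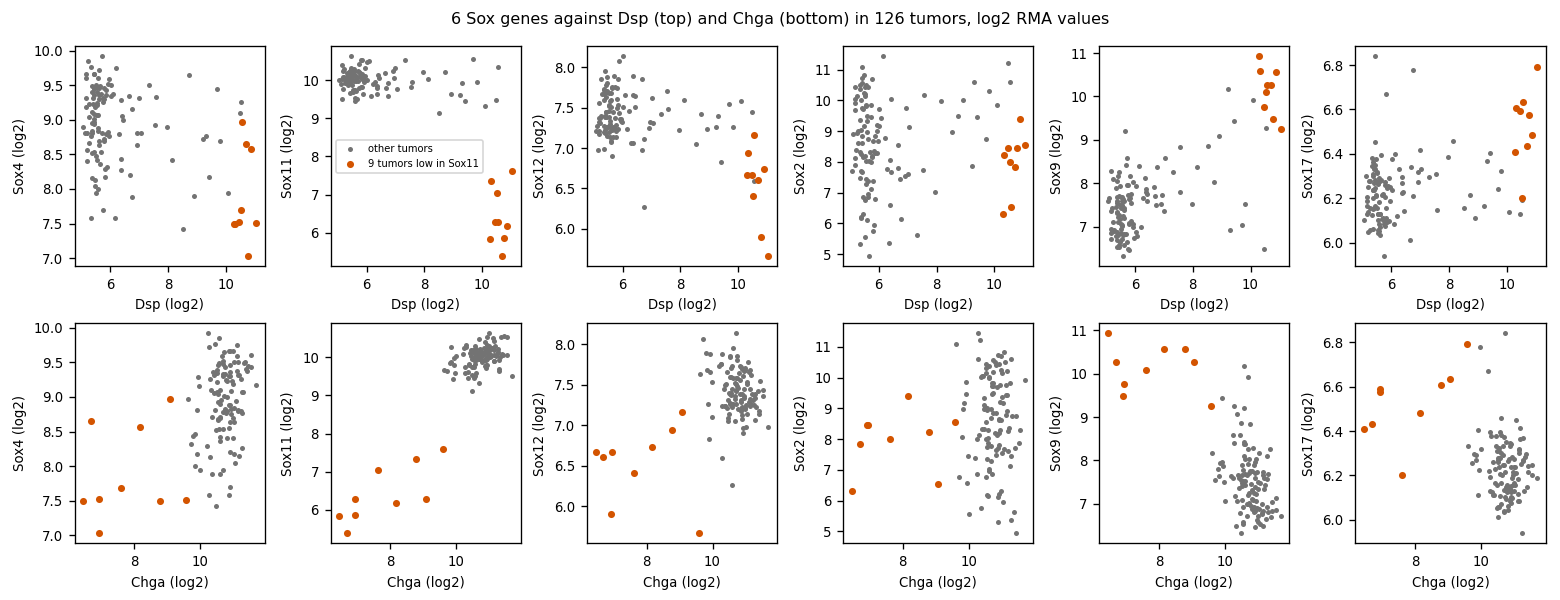
Each of the 6 Sox genes (vertical axes, log2) against Dsp (top row) and Chga (bottom row, log2) in 126 tumors. The 9 tumors low in Sox11, in orange, lie at the low end of Chga, where their highest value of 9.58 is next to 9.62 in another tumor, and at high Dsp, where 2 other tumors also lie.

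Among the 15 pairs of members, computed over 126 tumors or, with Sox11, over 117, 9 passed by r and 8 by rho. Within SoxC all 3 pairs rose together. These were Sox4 with Sox11 (r = 0.410, permutation p = 2e-05, adjusted p = 7.5e-05; rho = 0.366, p = 7e-05, adjusted p = 0.000525), Sox11 with Sox12 (r = 0.253, permutation p = 0.00619, adjusted p = 0.0103; rho = 0.259, p = 0.00495, adjusted p = 0.0108) and Sox4 with Sox12 (r = 0.427, permutation p = 1e-05, adjusted p = 5e-05; rho = 0.293, p = 0.00094, adjusted p = 0.00352). Without the 2 farthest tumors their r were 0.338, 0.251 and 0.363. In the tag ranges they ran from 0.261 to 0.605, from 0.0707 to 0.482 and from 0.191 to 0.542. In the 117 tumors Sox4 with Sox12 had r = 0.174 (permutation adjusted p = 0.180).

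Sox9 ran against each SoxC gene. Its r was -0.569 with Sox4, -0.460 with Sox12 and, within the 117 tumors, -0.348 with Sox11 (permutation adjusted p = 5e-05, 5e-05 and 0.000375). By rho these were -0.547, -0.251 and -0.279 (permutation adjusted p = 0.00015, 0.0108 and 0.00741). Without the 2 farthest tumors r was -0.546, -0.420 and -0.260, and the tag ranges gave -0.676 to -0.496, -0.689 to -0.0917 and -0.640 to -0.170. Over the 117 tumors r with Sox4 was -0.459 (permutation adjusted p = 0.00015) and with Sox12 -0.157 (0.221). Sox9 with Sox11 had -0.175 at 1 g or more.

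Sox17 rose with Sox9 (r = 0.373, rho = 0.300; permutation adjusted p = 0.00015 and 0.00352) and ran against Sox4 (r = -0.313, rho = -0.241; permutation adjusted p = 0.0009 and 0.0108). With Sox12 it passed by r (-0.284, permutation adjusted p = 0.00328) and not by rho (-0.0813, adjusted p = 0.607). Without the 2 farthest tumors these r were 0.327, -0.298 and -0.123, and in the tag ranges the first ran from 0.264 to 0.508, the second from -0.380 to -0.233 and the third from -0.453 to 0.057. None of the 3 passed without the 9 tumors (r = 0.105, -0.133 and 0.0397). No pair with Sox2 passed, and the r of those 5 pairs lay between -0.0546 and 0.0591.

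Genes linked to these factors were read against burden by lists, beside the 20.3% of all probe sets that rose and the 16.4% that fell. Of 5 known or proposed SoxC targets, 4 rose and 1 fell. Tubb3 and Dcx, a tubulin and a microtubule-binding protein of young neurons, rose by 0.0988 (adjusted p = 0.00265) and 0.100 per g (adjusted p = 0.0134). Ezh2, the Polycomb methyltransferase, rose by 0.0367 (adjusted p = 0.000513) and Map2, a dendritic protein, by 0.0418 (adjusted p = 0.0359). Tead2, a factor of the Hippo pathway, fell by 0.0617 per g (adjusted p = 0.00535). In tumors of 1 g or more none of the 5 passed (smallest adjusted p = 0.170), and without the 9 tumors none did either (smallest adjusted p = 0.132).

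Of 7 measured partners or stem cell genes listed beside Sox2, 1 passed. This was Prom1, the membrane protein CD133, which fell by 0.131 per g (adjusted p = 0.000863). Its slope was -0.0723 (adjusted p = 0.0733) without the 9 tumors and -0.115 (adjusted p = 0.0292) in tumors of 1 g or more. The neural POU factors Pou3f2 and Pou3f1 had slopes of 0.0611 (adjusted p = 0.138) and 0.0098 (adjusted p = 0.167), and Nanog, a factor of pluripotent cells, had 0.0050 (adjusted p = 0.418). Of 7 measured genes listed beside Sox9, 1 passed. Fgfr2, the receptor for stromal FGFs in the prostate, fell by 0.156 per g (adjusted p = 3.27e-06), and without the 9 tumors by 0.0967 (adjusted p = 0.00235). Col2a1, the collagen of cartilage and a target of Sox9 there, had a slope of 0.0088 (adjusted p = 0.210) and ran from 6.26 to 7.56. Ptch1, the Hedgehog receptor, had 0.0099 (adjusted p = 0.404) and Comp, a cartilage matrix protein, 0.0051 (adjusted p = 0.442). The list medians were 0.0418, 0.0025 and 0.0050 per g, where all probe sets had 0.0036.

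Against the summed markers, 60 relations of the 6 genes with 10 cell type lists were computed by permutation, again over 126 tumors or, with Sox11, over 117. By r 45 passed and by rho 29, and without the 9 tumors 24 and 14. Sox9 rose with the epithelial mean (r = 0.747; rho = 0.401; adjusted permutation p = 3e-05 and 0.00015) and fell with that of proliferation (r = -0.736; rho = -0.485; adjusted permutation p = 3e-05 and 8.57e-05). These r were 0.485 and -0.529 in the 117 tumors (adjusted permutation p = 0.00012 for both), and in those of them at 1 g or more 0.190 and -0.273.

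The relation to the mean of 11 neuroendocrine genes turned with the 9 tumors. Over all 126, r with it was 0.212 for Sox4 and -0.532 for Sox9 (adjusted permutation p = 0.0243 and 3e-05), and rho was -0.208 and 0.127 (0.0427 and 0.244). Within the 117 tumors r was -0.452 for Sox4 and 0.300 for Sox9 (adjusted permutation p = 0.00012 and 0.00507), and rho was -0.434 and 0.404 (0.0006 for both). Sox11 had r = -0.333 and rho = -0.357 within the 117 (adjusted permutation p = 0.00165 and 0.00135). Sox4 and Sox11 thus ran against this mean in the 117 tumors, although each had a positive r there with Chga, one of those genes.

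Sox17 rose with the mean of 12 endothelial genes (r = 0.478; rho = 0.434; adjusted permutation p = 3e-05 and 8.57e-05), and without the 9 tumors r was 0.327 and rho 0.346 (adjusted permutation p = 0.0018 and 0.0019). It was not alone in this, nor was this list. In the 117 tumors Sox9 also rose with the endothelial mean (r = 0.321, adjusted permutation p = 0.00288). Sox17 also passed there by r with the smooth muscle (0.281), fibroblast (0.269) and Schwann cell (0.274) lists (adjusted permutation p = 0.0103, 0.0135 and 0.0255). By rho it passed with none of these lists (0.208, 0.163 and 0.0367, adjusted permutation p = 0.0892, 0.210 and 0.888). Leaving out the 2 farthest tumors gave r of 0.240, 0.154 and 0.0373. The Schwann cell list had 1 measured gene, S100b. Sox2 passed with none of the 10 lists, and its r lay between -0.0818 and 0.117.

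The genes whose pattern was most like each member were found by Pearson's r among 22179 genes, as a description over the 126 tumors. Sox9 was nearest to A4galt (0.863), Traf3ip2 (0.848) and Bmpr1b (0.846), and ran most against Cenpw (-0.814), Rufy3 (-0.797) and Yaf2 (-0.793). In the 117 tumors these r were 0.731, 0.688, 0.696, -0.625, -0.592 and -0.565. Sox4 was nearest to Kdm1a (0.733), Fzd3 (0.729) and E2f3 (0.718) and ran most against Ahnak (-0.711), Shpk (-0.700) and Stat5a (-0.686), all of which kept an r of at least 0.601 in size without the 9. Sox12 was nearest to Praf2 (0.762), Phc1 (0.759) and Rnf208 (0.752), and furthest from Naaladl2 (-0.686), Cgnl1 (-0.679) and Dmd (-0.668). Without the 9 tumors these r were 0.567, 0.557, 0.647, -0.396, -0.419 and -0.361. Sox17 was nearest to Arhgap40 (0.636), Nfatc4 (0.625) and Rin1 (0.616), and furthest from Ercc6l (-0.583), Zdhhc21 (-0.572) and Katnal2 (-0.561). Without the 9 tumors these r were 0.462, 0.442, 0.480, -0.392, -0.374 and -0.370. Over all 126 Sox11 was nearest to Elavl3 (0.959), Soga3 (0.959) and Chrnb2 (0.956) and furthest from Flvcr2 (-0.902), Smim31 (-0.900) and Lancl3 (-0.899). Their r within the 117 tumors were 0.407, 0.405, 0.408, -0.334, -0.316 and -0.259. Within those 117, Sox11 was nearest to Tulp4 (0.603), Bcl7a (0.595) and Mex3b (0.591) and furthest from Snx5 (-0.528), Rnf13 (-0.501) and Crebl2 (-0.488). No gene came close to Sox2, for which Oprd1, an opioid receptor, led with 0.507 and Lrp4 (0.402) and Slain1 (0.366) followed. Saxo2 (-0.375), 5730420D15Rik (-0.360) and Kcnd2 (-0.354) were lowest for it. Without the 9 tumors these r were 0.506, 0.400, 0.361, -0.356, -0.350 and -0.377.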

How the data were processed

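Prostate tumors of 126 mice were hybridised to Affymetrix Mouse Gene 2.0 ST arrays. The authors normalized the arrays by RMA in Partek (version not given in the sources used here), and the deposited values are log2 intensities per probe set; the labels name a column kit for the RNA and the methods TRIzol. Probe sets were named through the platform annotation: 23521 had 1 symbol, 1820 several and 16004 none. Probe sets with 1 or several symbols whose mean lay above the 10th percentile of all (3.42) were tested. Burden, metastasis label and their interaction were fitted with limma 3.58.1 in R 4.3.3 (lmFit and eBayes), adjusted by Benjamini-Hochberg over 23507 probe sets and called at an adjusted p under 0.05. Correlations used two-sided permutation tests with 100000 resamples (Python 3.11.15, scipy 1.17.1), and within 9 tumors every pairing.

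Correlations were computed over all 126 tumors. Since Sox11 fell into separate clusters, its own were computed within the 117 tumors above the gap, a choice made after seeing the data. The labels give no batch; 4 ranges of mouse tag number (under 500, to 800, to 1000, and on) served in its place. Replicates are separate mice, and no 2 arrays were identical (highest correlation between arrays 0.992). The fit was tested on simulated data. Named genes were the members, Sox genes that passed, and up to 4 genes of each other list by smallest p for burden. The 3 nearest and 3 furthest genes by r were named too, for Sox11 over all tumors and within the 117. Hoxb13, Map2, Sox1, Sox3 and Sox6 were named after their values were seen. The members and lists were chosen with earlier results of these data known. Alternatives were another filter, centring and quantile normalization, log2 of burden, the methods' test and a rank test, tag range as block, burden or the epithelial mean as covariate, and leaving out tumors under 1 g, the 2 most extreme mice, the array that stood apart or the 9 tumors low in Sox11.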

Additional observations from a re-analysis of the deposited data

How the results depend on the processing

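Leaving out the 9 tumors low in Sox11 was chosen after seeing the data. Arrays centred or quantile normalized, no filter and leaving out the array of N1202 changed no call for the 6 genes on burden. Without tumors under 1 g, the slopes of Sox4 and Sox11 no longer passed (0.0260 and 0.0452 per g). Without the 9 tumors they were 0.0249 and 0.0021. With the epithelial mean as covariate, Sox4 (0.0034) and Sox9 (-0.0160) no longer passed and Sox11 (-0.0445) and Sox12 (-0.0198) turned sign. By the rank test Sox4 (rho = 0.203) and Sox11 (rho = 0.168) did not pass. On log2 of burden Sox12 (0.0774 per doubling) and Sox17 (-0.0308) passed. Sox17 passed too with the stricter filter (-0.0111), the tag range block (-0.0125), without the 2 most extreme mice (-0.0130) and by the methods' test (r = -0.211). Of the 6 genes, 0 rose instead of 2 with the epithelial mean, by the rank test, without tumors under 1 g and without the 9 tumors. With the epithelial mean 0 fell, and 2 fell instead of 1 in the 5 settings in which Sox17 passed. Of the 20 family genes 0 rose at 1 g or more or without the 9 tumors. Over the array, 870 probe sets rose and 1067 fell without tumors under 1 g, 1183 and 1511 without the 9 tumors, and 22 and 27 with the epithelial mean, against 4777 and 3860.

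For metastasis no alternative gave a call. The uncalled differences turned sign for Sox4 (-0.0070) and Sox9 (0.0228) with the epithelial mean, and for Sox11 (-0.0396) and Sox17 (0.00071) at 1 g or more. The uncalled interactions of Sox4 (0.0112) and Sox11 (0.0072) turned sign without the 9 tumors. Sox11 with Dsp did not pass at 1 g or more (-0.144) or by rank (-0.128), nor Sox12 with Chga by rank (0.0350). Without the 9 tumors, Sox4 (-0.167), Sox12 (-0.188) and Sox17 (0.0833) did not pass with Dsp, nor Sox17 with Chga (-0.185), and Sox12 with Chga turned sign (-0.203). Uncalled relations turned sign for Sox2 with Dsp by rank (-0.0721) and, without the 9, with Chga (-0.0490). Among the pairs, Sox17 with Sox11 turned sign at 1 g or more (-0.0169), and without the 9 tumors so did Sox17 with Sox12 (0.0397) and Sox2 (0.0067), Sox2 with Sox12 (-0.0421) and Sox9 with Sox2 (0.0512). The cause of these changes was not tested. The 9 tumors were set apart by Sox11 itself, and leaving them out also removed 5 of the 15 tumors under 1 g. No paired analysis was possible because each tumor came from a different mouse and the labels number the mice and not pairs. The number of tumors, 9 in the smaller cluster, limits what can be read within it.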

Other observations

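Sox1, Sox6 and Sox18 were also low in the 9 tumors low in Sox11, as values with no test. Sox1 and Sox6 were chosen after their values were seen. Neither the remaining Sox genes outside the members nor the share of all genes low in these tumors is given here. Sox1, a SoxB1 factor of neural progenitors, ran from 5.27 to 8.97 in them, where the 126 tumors had a median of 10.58, and all 9 ranked among its 11 lowest. Sox6, of the SoxD group, ran from 5.11 to 6.68 in them (median of all tumors 8.27), within its 28 lowest. Sox18 ran from 4.89 to 6.40 (median of all tumors 7.21), within its 26 lowest. Sox2 did not share this, since the 9 held ranks from 12 to 85 of 126.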
